A study of Mus musculus with 6 samples.

Results

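Cathepsins are the proteases of the lysosome. The 10 cathepsin genes described here (Ctsa, Ctsb, Ctsc, Ctsd, Ctse, Ctsh, Ctsk, Ctsl, Ctss and Ctsz) were taken by symbol, matched through the Ensembl identifier in GENCODE M21, out of 55573 genes in the deposited tables. All 10 passed the filter on low counts and were among the 16965 genes tested. The animals were wild type C57BL/6 mice, 9 to 10 weeks old, and total RNA of their lungs was read by Illumina sequencing in 6 libraries. The 3 libraries called CS came from mice that breathed cigarette smoke for 4 weeks, with 2 exposures daily, each lasting 75 min, and 5 exposure days weekly. The 3 libraries called SS-31H_CS came from smoke-exposed mice that were also given SS-31, a peptide that binds cardiolipin in the inner mitochondrial membrane, at 5 mg/kg and 1 dose a day. No such schedule is spelled out for the SS-31H_CS mice. Lungs without smoke were not analysed here, so every value below sets smoke plus SS-31 against smoke. The labels do not say that each library is a separate mouse, and the p-values measure only the spread between these libraries.

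Most cathepsins (Ctsb, Ctsc, Ctsh, Ctsk, Ctsl, Ctss, Ctsz) are cysteine proteases, Ctsd and Ctse are aspartic proteases, and Ctsa is a serine carboxypeptidase. They are made as inactive proenzymes, carried to the lysosome largely by mannose 6-phosphate receptors, and activated there at acid pH. In the lung they are best known from macrophages, where several degrade elastin and collagen, and from alveolar type 2 cells, where Ctsh takes part in processing the surfactant proteins.

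Many lysosomal genes carry a short palindrome, CACGTG or its longer form TCACGTGA, near their start, and this is the core of the element bound by TFEB and its relatives. The windows of 250 bases before the RefSeq start (GRCm38.p6) were searched for both spellings. Each reads the same on both strands, and the longer one contains the shorter. Of the 10 cathepsins, 7 were matched in the promoter table by 8 windows; Ctsb, Ctse and Ctsh were not matched. The longer motif stood in 2 of the 8 windows (Ctsd and the second listed start of Ctsa), against 0.785% of 32851 windows of all genes. The shorter one stood in 3 of the 8 (Ctsa, Ctsd and Ctsl), against 6.02%. By the GENCODE M21 bounds, the Ctsl window (chr13:64370521-64370770, minus strand) and the second listed Ctsa window lie inside the gene. The Ctsd window lies partly inside it. These windows are thus not wholly ahead of the outermost annotated start. The Ctsd window (chr7:142387828-142388077, minus strand) and the Ctsa window (chr2:164833523-164833772, plus strand) are printed 5′ to 3′ because they hold the longer form. Capitals mark the motifs.
Ctsd: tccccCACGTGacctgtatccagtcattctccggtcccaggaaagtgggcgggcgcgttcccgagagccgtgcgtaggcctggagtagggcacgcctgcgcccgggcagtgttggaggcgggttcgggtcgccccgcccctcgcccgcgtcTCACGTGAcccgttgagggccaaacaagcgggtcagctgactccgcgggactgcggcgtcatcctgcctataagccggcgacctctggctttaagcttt
Ctsa: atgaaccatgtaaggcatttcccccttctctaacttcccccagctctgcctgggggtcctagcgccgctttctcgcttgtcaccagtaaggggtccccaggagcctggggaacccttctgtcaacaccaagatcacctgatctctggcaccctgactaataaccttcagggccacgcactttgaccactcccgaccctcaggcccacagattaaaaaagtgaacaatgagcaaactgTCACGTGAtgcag
The longer motif began 99 bases before the RefSeq start of Ctsd and 13 bases before the second listed start of Ctsa. The Ctsd window held a second CACGTG at its far end. A match is a description of the letters in the window, not a site of binding.

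The lung label was checked first. Sftpc, a surfactant protein gene of alveolar type 2 cells, was at 11524 to 16079 CPM (counts scaled to a common library size, with TMM factors). Scgb1a1, the club cell secretory protein gene, was at 18263 to 47990 CPM. The libraries held 15611925 to 17360052 counts each, and 3 counts were worth 0.172 to 0.185 CPM. On the first principal component of all tested genes (46.4% of the variance) the groups lay apart. CS libraries were at -14.4, -7.19 and -61.3 and SS-31H_CS libraries at 12.5, 25.6 and 44.8. CS replicate 3 and SS-31H_CS replicate 3 thus stood at its opposite ends.

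By FPKM (fragments scaled by gene length and library total), Ctsd had the highest group mean of the 10 cathepsins and Ctse the lowest. The length used matched all annotated exons of a gene pooled, not a single transcript. It was 2351 bases for Ctsd, 6051 for Ctsb, 4499 for Ctsh and 1358 for Ctss, so the order depends on the annotation. By mean CPM in CS lungs, without a length, Ctsh (729, raised by CS replicate 3) and Ctsb (681) were above Ctsd (616). On the FPKM scale Ctsd was at 257 ± 39.0 (mean ± SD, n = 3) in CS and 219 ± 25.9 in SS-31H_CS lungs. Next came Ctss, the macrophage and dendritic cell enzyme that trims the MHC class II invariant chain, with 164 ± 2.36 and 164 ± 33.8 FPKM. Ctsz, a carboxypeptidase, was at 159 ± 9.58 and 149.6 ± 17.9 FPKM. These 3 genes held the first 3 ranks of the group means in both groups. Within CS replicate 3, however, Ctsh (275 FPKM) was above Ctsd (218 FPKM). By group mean Ctsh came before Ctsb in CS lungs, but only through CS replicate 3, at 275 FPKM. In the other CS libraries Ctsh (100.2 and 96.3 FPKM) was below Ctsb (112.7 and 106 FPKM), as it was with SS-31. Ctsb, a broad endopeptidase and dipeptidase, was at 110.3 ± 3.76 and 107 ± 2.94 FPKM. Below them followed Ctsc, Ctsa, Ctsl and Ctsk in the same order in both groups, from 55.9 ± 4.64 FPKM for Ctsc down to 21.2 ± 1.89 FPKM for Ctsk in CS lungs. Ctse was at 1.89 ± 0.300 and 1.38 ± 0.534 FPKM. In CS lungs the library ranges overlapped for the neighbours Ctss and Ctsz, Ctsz and Ctsh, Ctsh and Ctsb, and Ctsc and Ctsa. In SS-31H_CS lungs they overlapped for Ctss and Ctsz and for Ctsc and Ctsa. All other neighbours in the order were apart.

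**Figure D1:**
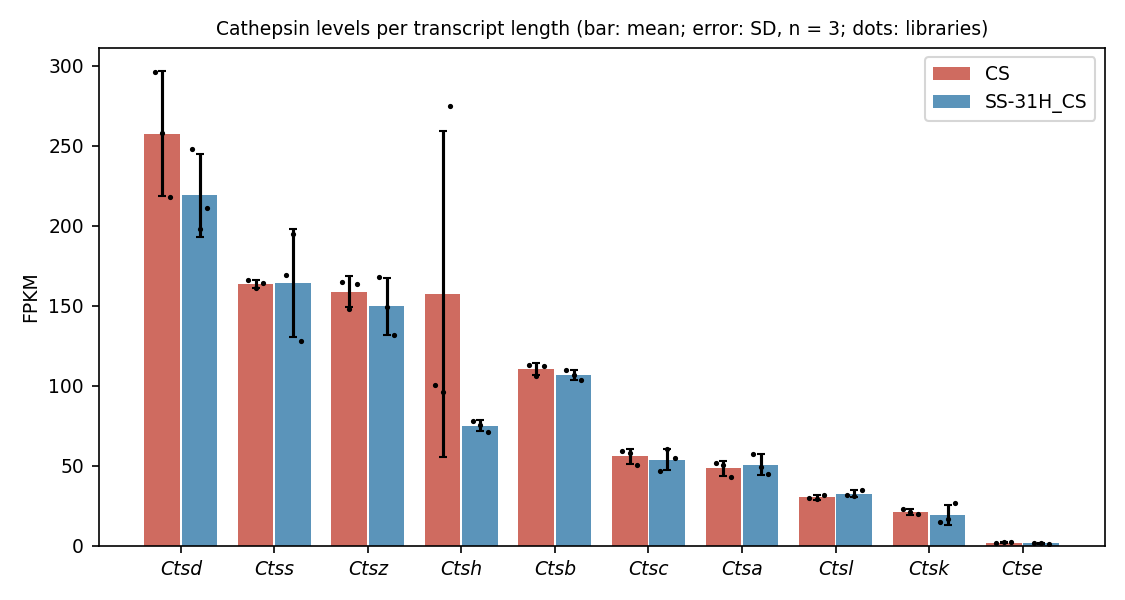
Level of the 10 cathepsins in FPKM (vertical axis from 0), where the length is that of the pooled annotated exons of a gene. Bars are group means, error bars the SD over 3 libraries, dots the libraries. By mean, Ctsd is highest and Ctse lowest in both groups. The wide bar of Ctsh in CS comes from a library at 275 FPKM, where Ctsh is above Ctsd.

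None of the 10 cathepsins passed the test for a difference between the groups: 0 of 10 reached an adjusted p under 0.05 in edgeR's quasi-likelihood test, Benjamini-Hochberg adjusted over all tested genes, and 0 passed in DESeq2 or limma voom. The same test called 26 of 16965 genes, or 0.153%. At an unadjusted p under 0.05, 1 of 10 was lower with SS-31 (Ctsh) and 0 were higher, where 8.23% of all tested genes were lower and 9.93% higher. In 1 of 10 (Ctsh again) the groups did not overlap, with SS-31H_CS lower, and in 0 with it higher, against 12.4% and 13.6% of all tested genes. The members' counts are thus near the background. Log2 fold changes (SS-31H_CS over CS) were negative for 8 members and positive for 2, with a median of -0.13, beside a median of 0.01 over all tested genes. In whole lung RNA, fewer cells of a type and less RNA per cell cannot be told apart.

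**Figure D2:**
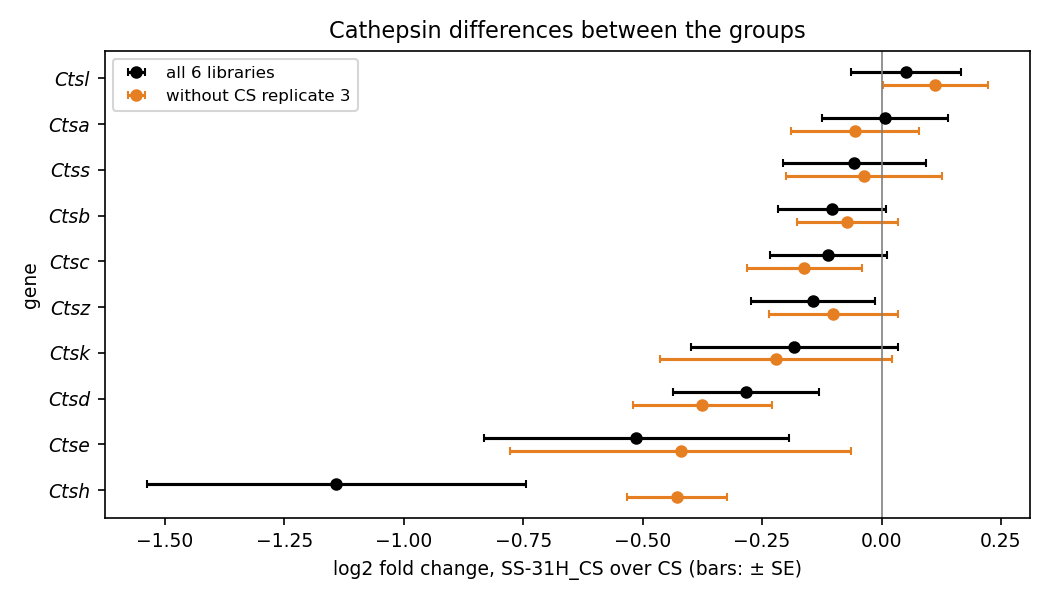
Log2 fold change of each cathepsin, SS-31H_CS over CS (horizontal axis), with bars of 1 standard error, from all 6 libraries (black) and without CS replicate 3 (orange). Ctsh moves from -1.14 to -0.43 when that library is left out, and the other 9 members move by little.

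Ctsh, cathepsin H (ENSMUSG00000032359, GRCm38 chromosome 9, 90054152 to 90076089, plus strand), had the lowest p of the family. It is an aminopeptidase abundant in alveolar type 2 cells. Its level was 457, 430.3 and 1300.0 CPM in the CS libraries and 350.2, 323 and 318 CPM in the SS-31H_CS libraries. Every SS-31H_CS library was below every CS library, and CS replicate 3 stood far above the other 5. The means were 729 ± 495 and 331 ± 17.2 CPM, a log2 fold change of -1.14 (SE 0.40; unadjusted 95% interval -2.05 to -0.23; adjusted p = 0.202 by edgeR). DESeq2 gave -1.17 (adjusted p = 0.261). Without CS replicate 3 the difference was -0.43 (SE 0.10, adjusted p = 0.175), smaller and with less spread. It was -0.40 without the third library of both groups. Over the 17 alternatives Ctsh ranged from -1.41 to -0.40, with adjusted p from 0.0525 to 0.469, always negative. No other gene's exons overlap those of Ctsh in GENCODE M21. Of the CS libraries, replicate 3 put 25.4% of its summed cathepsin FPKM on Ctsh, against 9.96% and 10.4% in the other CS libraries and 8.45% to 8.82% in the SS-31H_CS libraries.

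Cell type markers are given beside Ctsh for the whole of each list. Summed over 10 alveolar type 2 markers, the levels were 25843 to 29357 CPM under smoke alone and 23612 to 30568 CPM with SS-31, and CS replicate 3 (25843 CPM) was close to CS replicate 2 (26077 CPM). Such a sum leans on its most abundant genes. With each marker counted equally, the mean deviation from the 6 libraries was taken in log2 CPM. It was 0.11, -0.03 and 0.10 under smoke alone and -0.07, -0.19 and 0.08 with SS-31. On that scale CS replicate 3 was close to CS replicate 1. Log2 fold changes were negative for 7 of the 10 markers and positive for 3. Sftpd and Abca3 are named because they had the 2 lowest p. Within that list Sftpd, surfactant protein D, was at 954, 866 and 1607 CPM under smoke alone and at 705, 775 and 864 CPM with SS-31 (log2 fold change -0.55, adjusted p = 0.270), so its highest library was also CS replicate 3. Without that library the Sftpd difference was -0.22 (adjusted p = 0.469). Abca3, the lipid transporter of lamellar bodies, was at 547, 539 and 544 CPM under smoke alone and 427, 337 and 433 CPM with SS-31 (-0.45, adjusted p = 0.157; DESeq2 adjusted p = 0.0309). The 8 neutrophil markers summed to 3647 CPM in CS replicate 3, the highest of the 6 libraries, and to 464 CPM in SS-31H_CS replicate 3, the lowest. The 6 B cell markers summed to 55.2 CPM in CS replicate 3 and to 208 to 297 CPM in the other 5. The 10 T and NK cell markers summed to 38.04 CPM there and to 76.2 to 167 CPM elsewhere. The part of these cells in the Ctsh difference was not tested.

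The tested genes most like Ctsh over the 6 libraries, taken from 10853 averaging 10 CPM or more, were Gm12715 (Pearson r 0.999), Tpm4, a tropomyosin gene (0.998), and Fntb, a farnesyltransferase subunit gene (0.998). These r values describe log2 CPM in n = 6 libraries that share CS replicate 3 as their extreme, and without it they were 0.995, 0.974 and 0.983. The libraries left also took part in picking the genes, so the latter values are no separate check. Tpm4 was at 535, 502 and 864 CPM under smoke alone and 466, 458 and 439 CPM with SS-31. Gm12715 (92.5 CPM) and Fntb (35.0 CPM) were likewise highest in CS replicate 3.

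**Figure D3:**
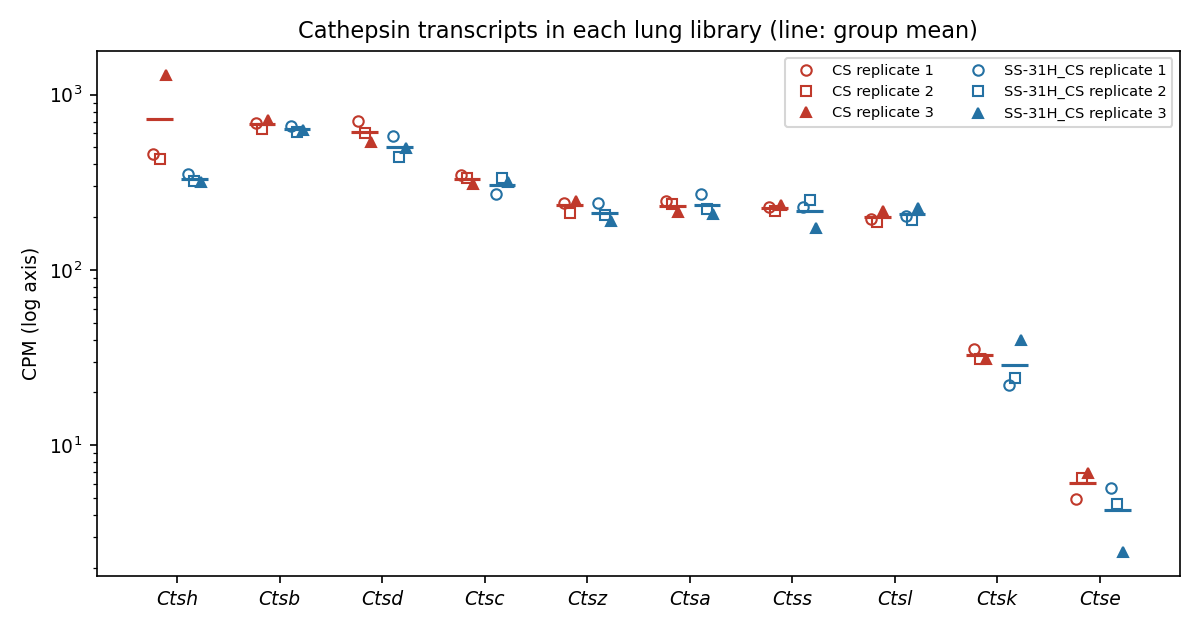
Level of each cathepsin in every library (CPM, log axis); marker shapes separate the replicates, red is CS, blue SS-31H_CS, and short lines are group means. Ctsh in CS replicate 3, at 1300.0 CPM, stands above all other values; for the other 9 genes the groups overlap.

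Among the other cysteine cathepsins the groups overlapped for every gene. Ctsb (ENSMUSG00000021939, chromosome 14, 63122462 to 63145923, plus strand) was at 691, 637 and 715 CPM under smoke alone and 661, 615 and 624 CPM with SS-31. The log2 fold change was -0.10 (SE 0.11, 95% interval -0.37 to 0.16, adjusted p = 0.651). Exons of Fdft1 on the opposite strand cover 12.8% of its exon bases. Ctsz (ENSMUSG00000016256, chromosome 2, 174427493 to 174439039, minus strand) was at 241, 212 and 248 CPM under smoke alone and 241, 205 and 189 CPM with SS-31, a difference of -0.14 (interval -0.44 to 0.16, adjusted p = 0.586). Both intervals include 0 and reach to differences of the size of their ends, so the data do not show that these levels are equal.

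Ctsc, Ctss and Ctsl act mainly in immune and epithelial lysosomes. Ctsc (ENSMUSG00000030560, chromosome 7, 88278085 to 88310888, plus strand), the dipeptidyl peptidase that activates neutrophil and mast cell serine proteases, was at 350.0, 333 and 309.5 CPM under smoke alone and 269.9, 333 and 316 CPM with SS-31. Its difference was -0.11 (interval -0.39 to 0.17, adjusted p = 0.655). The 8 serine proteases it matures gave 0 calls and 0 at an unadjusted p under 0.05 in either direction by edgeR, with a median log2 fold change of -0.03 that ranged from -0.43 (without CS replicate 3) to 0.53 (without CS replicate 2). Prtn3, proteinase 3, was at 5.70 ± 1.87 CPM with SS-31 and 7.84 ± 0.432 CPM without (-0.46, adjusted p = 0.388; -0.24 without SS-31H_CS replicate 3, or -0.71 if replicate 1 of that group was dropped). Mcpt4, a mast cell chymase (adjusted p = 0.553), and Gzmk, granzyme K (adjusted p = 0.736), were each under 4 CPM in every library, too low for their differences to be read.

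Ctss (ENSMUSG00000038642, chromosome 3, 95526786 to 95556403) was at 228, 217 and 234 CPM under smoke alone and 229, 252 and 173 CPM with SS-31. The SS-31H_CS libraries spread from the highest to the lowest level of the 6. The log2 fold change was -0.06 (interval -0.40 to 0.29, adjusted p = 0.864), and without SS-31H_CS replicate 3 it was 0.08. Monocyte and interstitial macrophage markers (12 genes) summed to 680, 610 and 676 CPM in CS libraries and to 692, 799 and 536 CPM in the SS-31H_CS libraries. Ctss and this sum had the same order in the SS-31H_CS group but not in CS. There Ctss was highest in replicate 3 and the sum in replicate 1. The part of these cells in the Ctss level was not tested. Ctsk (ENSMUSG00000028111, chromosome 3, 95499256 to 95509362), a collagenase known from osteoclasts and fibroblasts, lies next to Ctss, 17423 bases away with 0 genes between. Ctsk was at 35.6, 31.2 and 31.0 CPM under smoke alone and 22.1, 24.2 and 39.8 CPM with SS-31. Its lowest and highest values were both in the SS-31H_CS group, and SS-31H_CS replicate 3 was highest for Ctsk and lowest for Ctss. The difference of -0.18 (interval -0.68 to 0.31, adjusted p = 0.679) became -0.50 when SS-31H_CS replicate 3 was left out and -0.03 when replicate 1 of that group was.

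Ctsl (ENSMUSG00000021477, chromosome 13, 64359337 to 64370890, minus strand), an endopeptidase with elastase activity, was at 196, 187 and 218 CPM under smoke alone and 203, 193 and 225 CPM with SS-31. The log2 fold change was 0.05 (interval -0.21 to 0.32, adjusted p = 0.840). Exons of Gm47123 (opposite strand) and Gm49230 (same strand) cover 26.8% of its exon bases. Reads from bases shared with Gm49230 cannot be assigned by strand. Those shared with Gm47123 cannot be assigned where the strand setting is not given.

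After Ctsh, the aspartic cathepsins had the largest differences in size. Ctsd (ENSMUSG00000007891, chromosome 7, 142375911 to 142388038, minus strand), the main aspartic protease of lysosomes, was at 705, 602 and 539 CPM under smoke alone and 580.4, 443 and 493 CPM with SS-31. The groups overlapped through CS replicate 3 and SS-31H_CS replicate 1. Means were 616 ± 84.0 and 506 ± 69.4 CPM, a log2 fold change of -0.28 (SE 0.15, interval -0.64 to 0.07, adjusted p = 0.367). It was negative under all 17 alternatives, between -0.40 and -0.18 (the smaller size without CS replicate 1). Exons of Gm49369, on the same strand, cover 34.4% of the exon bases of Ctsd. Ctse (ENSMUSG00000004552, chromosome 1, 131638306 to 131675505, plus strand), an endosomal aspartic protease of epithelia and antigen-presenting cells, had 84 to 113 counts in CS and 42 to 97 counts in SS-31H_CS libraries. That is 4.95 to 6.90 CPM and 2.47 to 5.73 CPM, with SS-31H_CS replicate 3 lowest. The difference was -0.51 (SE 0.32, interval -1.25 to 0.22, adjusted p = 0.428) and shrank to -0.24 without SS-31H_CS replicate 3.

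Ctsa (ENSMUSG00000017760, chromosome 2, 164832873 to 164841032, plus strand), the protective protein that holds neuraminidase and beta-galactosidase together, was at 248, 236 and 213 CPM under smoke alone and 270.0, 222 and 209 CPM with SS-31. The log2 fold change was 0.01 (interval -0.30 to 0.31, adjusted p = 0.982), the smallest in size of the 10. Its sign turned without SS-31H_CS replicate 1 (-0.12). Exons of Neurl2 and Pltp on the opposite strand cover 17.4% of its exon bases. Its 3 partners in the complex gave 0 calls and 0 at an unadjusted p under 0.05 by edgeR, with log2 fold changes of 0.13 for Neu1, the sialidase (adjusted p = 0.544), 0.08 for Glb1, beta-galactosidase (adjusted p = 0.730), and 0.02 for Galns, a sulfatase (adjusted p = 0.959).

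Summed over all 10 members, the cathepsins held 3157, 2892 and 3814 CPM under smoke alone and 2832, 2615 and 2590 CPM with SS-31. The groups did not overlap. Leaving out Ctsh, the sums were 2462 to 2700 CPM and 2272 to 2482 CPM, and the groups overlapped. As a share of all FPKM, the family made up 0.292% ± 0.0221 in CS and 0.229% ± 0.0292 in SS-31H_CS lungs. The total behind that share differed too, at 339276 to 351892 FPKM in CS and 359263 to 412501 FPKM in SS-31H_CS libraries. The family itself summed to 1005, 929 and 1080 FPKM under smoke alone and 925, 883 and 807 FPKM with SS-31. The 7 cysteine members summed to 656, 619 and 817 FPKM under smoke alone and 618, 634 and 550.4 FPKM with SS-31, so CS replicate 3 was highest and the groups overlapped. Means were 697 ± 105 and 601 ± 44.4 FPKM, and for the 2 aspartic members 259 ± 38.7 and 220.2 ± 26.2 FPKM. These sums were not tested.

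Of the 4 further cathepsins with tested counts, Ctsf ran the other way. Ctsf, a cysteine cathepsin with a long cystatin-like propeptide, was at 25.5, 23.0 and 9.93 CPM under smoke alone and 38.2, 39.2 and 37.7 CPM with SS-31. Every SS-31H_CS library was above every CS library, and CS replicate 3 was lowest. The log2 fold change was 0.98 (SE 0.30, edgeR adjusted p = 0.166), and 0.66 without CS replicate 3 (adjusted p = 0.0895). DESeq2 gave an adjusted p of 0.0257, and edgeR without the low-count filter gave 0.0379. Ctsw, a cathepsin of cytotoxic lymphocytes, was at 11.1, 16.0 and 2.59 CPM under smoke alone and 12.4, 26.8 and 11.7 CPM with SS-31 (0.77, adjusted p = 0.504; 0.31 without CS replicate 3, or 0.28 if SS-31H_CS replicate 2 was dropped). It was low in CS replicate 3, where the T and NK cell markers were lowest. Ctso was at 63.6 to 76.3 CPM under smoke alone and 68.6 to 71.9 CPM with SS-31 (0.01, adjusted p = 0.984). Ctsg, the neutrophil serine protease cathepsin G, was near 1 CPM (-0.01, adjusted p = 0.993). In this list 0 of 4 passed edgeR's adjusted threshold, 1 was higher at an unadjusted p under 0.05, and the median log2 fold change was 0.39. That median was 0.12 without CS replicate 3, 0.15 without SS-31H_CS replicate 2, 0.66 without SS-31H_CS replicate 3, 0.61 without CS replicate 1 and 0.63 without CS replicate 2.

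Of the inhibitors, 8 of 9 were tested and 0 passed by edgeR, with 1 higher at an unadjusted p under 0.05 and a median of -0.24. The sign of that median rested on single libraries: it was 0.04 without CS replicate 3, -0.03 if SS-31H_CS replicate 3 was dropped and 0.28 if both were. Cst3, cystatin C, the chief secreted inhibitor of cysteine cathepsins, was at 581, 540 and 485 CPM under smoke alone and 672, 668 and 652 CPM with SS-31. Every SS-31H_CS library was above every CS library. The log2 fold change was 0.31 (SE 0.12, adjusted p = 0.233; DESeq2 adjusted p = 0.154). Stfa2 and Stfa1, stefins of myeloid cells, were at 1.83, 2.69 and 8.45 CPM and at 2.48, 2.35 and 4.38 CPM in CS libraries, each highest in CS replicate 3 where the neutrophil markers were highest. In the SS-31H_CS libraries they were at 4.31, 1.28 and 0.176 CPM and at 3.36, 1.22 and 0.0587 CPM. Their differences were -1.16 (SE 0.89, adjusted p = 0.516) and -0.98 (SE 0.82, adjusted p = 0.554). Without CS replicate 3 they were -0.23 for Stfa2 and -0.64 for Stfa1, without SS-31H_CS replicate 3 they were -0.62 and -0.42, and without SS-31H_CS replicate 1 they were -2.57 and -2.27. Both had 1 to 3 counts in SS-31H_CS replicate 3.

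The genes that sort and mature cathepsins gave 0 calls of 8 and 0 at an unadjusted p under 0.05 by edgeR, with a median of -0.07 (-0.10 to 0.01 with 1 library left out; its sign turned without CS replicate 1). In 3 of these 8 the SS-31H_CS libraries were all below the CS libraries, against 12.4% of all tested genes. Lgmn, legumain, which cleaves cathepsin proenzymes, was at 180, 167 and 191 CPM under smoke alone and 157, 151 and 163 CPM with SS-31 (-0.19, adjusted p = 0.372). Igf2r, the cation-independent mannose 6-phosphate receptor, was at 121, 121 and 135 CPM under smoke alone and 107, 99.95 and 116 CPM with SS-31 (-0.22, adjusted p = 0.329). Gnptab, which makes the mannose 6-phosphate tag, had -0.11 (adjusted p = 0.553).

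Other parts of the lysosome also gave no call. Of 20 further hydrolases, 0 passed by edgeR, 1 was higher and 1 lower at an unadjusted p under 0.05, and the median was -0.02 (-0.10 to 0.01 with 1 library left out; positive without CS replicate 1 or SS-31H_CS replicate 3). Hexa, a glycosidase gene, had 0.35 (adjusted p = 0.305; 0.20 without CS replicate 3). Smpd1, acid sphingomyelinase, was at 112 ± 13.6 and 91.4 ± 6.54 CPM (-0.29, adjusted p = 0.266). Of 14 membrane and acidification genes, 0 passed and 1 was lower at an unadjusted p under 0.05, with a median of -0.04 (-0.08 to -0.01 with 1 library left out). That gene was Atp6v0d2, a proton pump subunit of macrophages and osteoclasts, at 44.3, 35.9 and 31.8 CPM under smoke alone and 30.7, 24.2 and 26.1 CPM with SS-31 (-0.47, adjusted p = 0.185). The cholesterol exporter Npc1 (-0.22, adjusted p = 0.394) and the membrane protein Scarb2 (-0.17, adjusted p = 0.465) followed in order of p.

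The 4 transcription factor genes that act on the palindrome printed above gave 0 calls and 0 at an unadjusted p under 0.05 by edgeR. Tfeb was at 37.4, 35.9 and 32.9 CPM under smoke alone and 41.0, 39.2 and 38.4 CPM with SS-31 (0.16, adjusted p = 0.433), with the groups apart. Mitf was at 14.6, 12.99 and 15.5 CPM under smoke alone and 12.2, 12.2 and 11.7 CPM with SS-31 (-0.25, adjusted p = 0.384), apart in the other direction. Tfe3 (-0.24, adjusted p = 0.377; -0.14 without SS-31H_CS replicate 2) and Tfec (-0.15, adjusted p = 0.826; 0.08 without CS replicate 1 and -0.44 without CS replicate 3) overlapped. Ctsd and Ctsa, whose windows hold TCACGTGA, had differences of -0.28 and 0.01, as above.

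Several cathepsins are abundant in macrophages, so the markers of these cells were summed beside them. The 15 alveolar macrophage markers summed to 2294, 2052 and 2422 CPM under smoke alone and 1404, 1278 and 1013 CPM with SS-31, without overlap. Much of that sum was Chil3, at 1398, 1220 and 1627 CPM under smoke alone and 792, 678 and 428 CPM with SS-31. Differences were negative for 13 of the markers and positive for 2. In 5 of 15 the groups did not overlap, with SS-31H_CS lower, against 12.4% of all tested genes. Of the 15 markers, 1 fell by edgeR (Lpl, lipoprotein lipase, 277 ± 4.91 CPM under smoke alone and 121 ± 0.932 CPM with SS-31, a log2 difference of -1.19, adjusted p = 0.00900), and the median was -0.25 (-0.15 without CS replicate 1). Marco, a scavenger receptor, was at 21.8 to 29.9 CPM under smoke alone and 10.8 to 15.1 CPM with SS-31 (-1.03, edgeR adjusted p = 0.0800, DESeq2 adjusted p = 0.000114). The part of these cells in the cathepsin values was not tested. Airway markers ran the other way. All 8 ciliated cell markers were higher in every SS-31H_CS library than in any CS library, against 13.6% of all tested genes. Of them Cfap43, an axoneme gene, passed by edgeR (1.49, adjusted p = 0.0467). The 8 club cell markers had a median of 0.89, with Scgb3a2 passing by edgeR (1.44, adjusted p = 0.0467). With 1 library left out Cfap43 and Scgb3a2 no longer passed, and Lpl passed only without CS replicate 3 (adjusted p = 0.0179); the highest adjusted p was 0.182 for Cfap43, 0.167 for Scgb3a2 and 0.0821 for Lpl. The club cell median was 0.54 without SS-31H_CS replicate 3. In these 3 lists DESeq2 called more: 4 alveolar macrophage, 4 club cell and 7 ciliated cell markers, where it called 941 of 29395 genes. In the remaining 8 lists edgeR called 0 genes, with 0 to 4 at an unadjusted p under 0.05 in either direction, while DESeq2 called 3 dendritic cell, 2 endothelial, 1 neutrophil, 1 alveolar type 2 and 1 fibroblast marker. Several of their medians rested on single libraries. The neutrophil median was -0.95, becoming -1.80 when SS-31H_CS replicate 1 was dropped and -0.60 when replicate 3 of that group was. The B cell median was 0.69, becoming 0.27 without CS replicate 3 and 1.11 without CS replicate 2. The T and NK cell median was 0.68, becoming 0.08 without SS-31H_CS replicate 2. Dendritic cell markers had a median of 0.61 (0.51 to 0.88 with 1 library left out), endothelial markers -0.22 (-0.33 to -0.12, the ends without CS replicates 3 and 2) and alveolar type 2 markers -0.11 (-0.18 to -0.09, the lower end without SS-31H_CS replicate 3). For monocytes and interstitial macrophages the median was 0.08 (-0.12 if SS-31H_CS replicate 2 was dropped), and for fibroblasts -0.01, turning positive with any 1 library left out (up to 0.09).

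**Figure D4:**
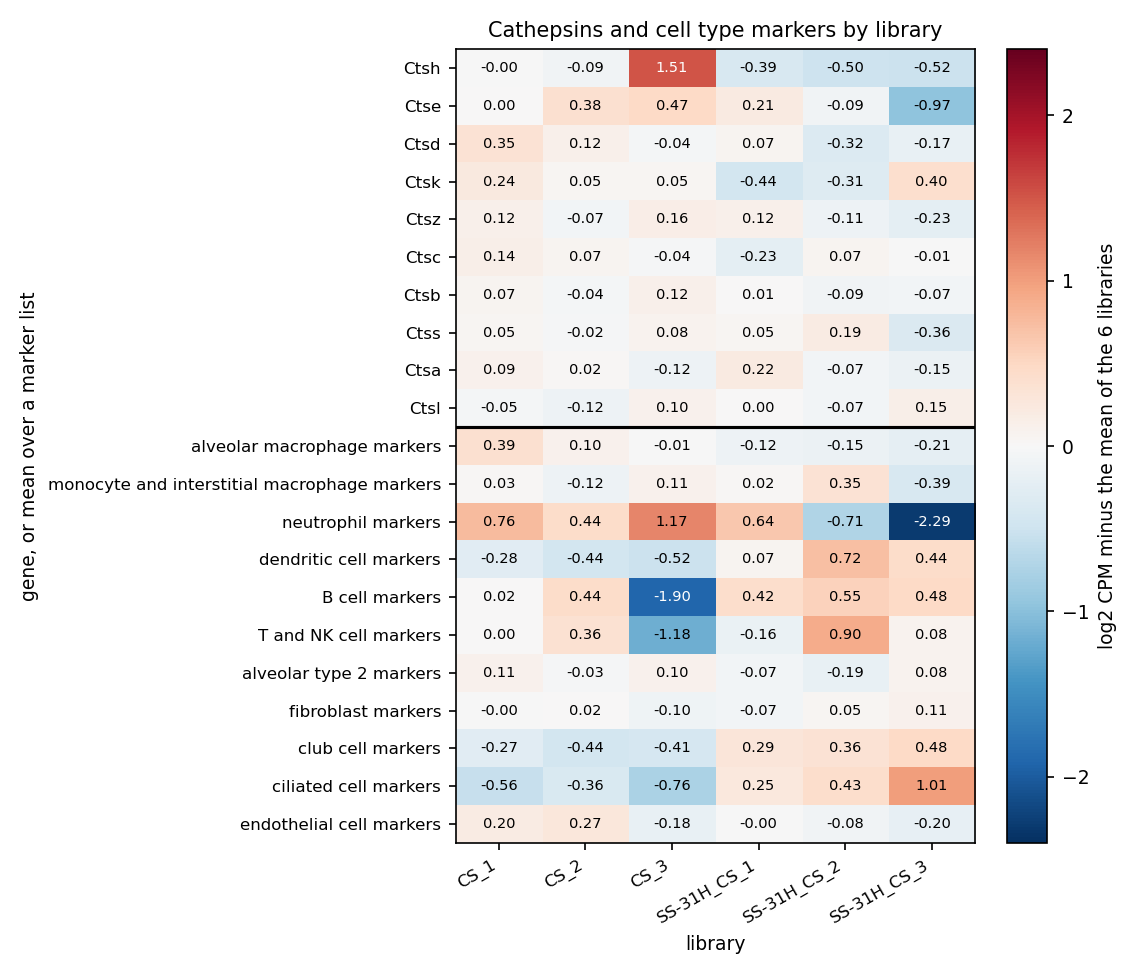
Deviation of each library from the mean of the 6 on the log2 CPM scale (colour and printed value), for the 10 cathepsins and, under the line, the mean over each cell type marker list. Ctsh at 1.51 in CS replicate 3 stands out among the cathepsins; B cell markers at -1.90 and neutrophil markers at 1.17 mark the same library.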

How the data were processed

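For each of the 6 libraries the deposited tables hold whole read counts by Ensembl gene, with no scaling, and the FPKM that the authors made. Per the submitters' processing notes, cutadapt 1.9.1, HISAT2 2.0.1, HTSeq 0.6.1 and GRCm38 were used; the annotation release, strand setting and filters are not given in the sources used here. Symbols, coordinates and exon overlaps came from GENCODE M21. Counts were tested with edgeR 4.0.16 (R 4.3.3): TMM factors, the filterByExpr filter (minimum count 10, minimum total 15), group as the only term, two-sided quasi-likelihood test, Benjamini-Hochberg adjustment over all tested genes, threshold 0.05. Fold changes (log2) divide SS-31H_CS by CS. The deposited FPKM served for levels between genes and, as log2(FPKM + 1) or log2(FPKM + 0.1), as alternatives in limma 3.58.1. Over 3310 well-counted genes they followed count and library total to within 0.325%. Other alternatives were DESeq2 1.42.0, limma voom, other scalings, filters and thresholds, a replicate block, and leaving out libraries. The fit was tested on simulated data. Members and gene lists were chosen with earlier results of these data known. Named beside the cathepsins are all genes of the 3 lists of other cathepsins, cathepsin A partners and regulators. Of each remaining gene list the 3 with the lowest p are named (1 further hydrolase is not reported here), and for Ctsh the 3 most like it. The rule also takes the 2 lowest p of each marker list, printed only where they stand beside a cathepsin value or pass the threshold. Sftpc and Scgb1a1 serve the tissue check, and Chil3 is named for its weight in the alveolar macrophage sum.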

Additional observations from a re-analysis of the deposited data

How the results depend on the processing

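The number of cathepsins past the threshold was 0 under every alternative run. Their median log2 fold change stayed between -0.18 and -0.07. Signs turned only for members near 0. Ctsa was at -0.00483 with RLE size factors, -0.00199 without the low-count filter and -0.0103 in DESeq2, and from -0.116 to 0.0766 with a single library left out. Leaving out a single library moved Ctsl between -0.0164 and 0.112 and Ctss between -0.175 and 0.0817. Ctss was at 0.00239 with library size alone and 0.11 without replicate 3 of both groups. The background count of 26 genes was less stable. It was 12 with library size alone, 648 without the low-count filter, 941 in DESeq2, 6 in limma voom, 6 on log2(FPKM + 1), 5 on log2(FPKM + 0.1), 4 on log2(FPKM + 1) without a filter, and 299 at an adjusted p under 0.1. Leaving out 1 library gave 1 to 15 genes. Without replicate 3 of both groups it was 36, with 4 libraries. The cause of these differences was not tested.

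No pairing by replicate number was seen. Deviations of same-numbered libraries correlated at 0.01, 0.04 and -0.06, and those of differently numbered libraries at -0.10 to 0.07. With deviations centred within groups of 3, these values cannot exclude a pairing. With the replicate block 0 of all tested genes and 0 cathepsins passed. Ctse had the fewest counts of the 10 members, 42 to 113 a library, and all 10 are limited by having 3 libraries a group.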

Other observations

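The ratio of Cst3 FPKM to the summed FPKM of the 7 cysteine cathepsins, chosen after the values were seen and not tested, was 0.691, 0.694 and 0.446 in CS and 0.862, 0.874 and 0.940 in SS-31H_CS libraries. Leaving out Ctsh, it was 0.815, 0.822 and 0.673 in CS and 0.987, 0.992 and 1.08 in SS-31H_CS libraries. The groups did not overlap with or without Ctsh. They were already apart in Cst3 FPKM alone, at 364.5 to 453 in CS and 518 to 554 in SS-31H_CS libraries. The ratio is thus no separate evidence.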
